A study of Mus musculus with 18 samples.

Results

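Immune genes that stood lower in stem cells lacking Helios are described here: Arl11, Gpr141, Ms4a4b, Nfam1, Arhgap15 and Cd52. They are 6 of the 29437 genes in the deposited table and were found there by gene name. All 6 were picked because their read counts were lower in Helios KO than in WT long-term hematopoietic stem cells (LT-HSC), so the LT-HSC values below are a description and carry no test. For 5 of the 6 genes every KO library of LT-HSC lay below every WT library, as was so for 6.14% of the 16325 genes with enough reads to be tested. Gpr141 went against this label, since its difference came from 1 WT library alone and no read of it was found in the other 5 LT-HSC libraries.

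Poly(A) RNA was sequenced from bone marrow cells of mice aged 10 weeks, 3 of them Helios null (KO) and 3 WT. From each mouse 3 populations of lineage-negative cells positive for Sca1 and Kit were purified. LT-HSC carried CD150 and lacked CD48, MPP3 carried CD48 and lacked CD150 and Flt3, and MPP4 carried CD48 and Flt3 and lacked CD150. The groups were LT-HSC KO, LT-HSC WT, MPP3 KO, MPP3 WT, MPP4 KO and MPP4 WT, with 3 libraries each. The labels give neither the strain nor how the null allele was made.

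Helios is a zinc finger transcription factor encoded by Ikzf2, and like its relative Ikaros it recognises DNA around the core GGGAA. Stem cells of the bone marrow already transcribe many genes of mature blood cells at a low level, and their progeny MPP3 and MPP4 lean towards the myeloid and lymphoid lineages. The genes described here act at different levels of immune signalling. Nfam1 is a receptor with an immunoreceptor tyrosine-based activation motif (ITAM), the sequence that hands a signal to Syk-type kinases and on to NFAT factors. Gpr141 is an orphan G protein-coupled receptor, Ms4a4b is a membrane-spanning protein known from mouse T cells, and Cd52 is a short glycoprotein tied to the outer membrane by a lipid anchor on lymphocytes and monocytes. Arhgap15 switches off the GTPase Rac, and Arl11 is a small GTPase of the ARF-like group with a role in macrophage activation.

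The promoters of 5 of the 6 genes were found in the RefSeq promoter table (GRCm38.p6) and were searched for GGGAA and its reverse TTCCC, the core that Ikaros-family proteins bind. The 4 that hold it are shown, because they let the reader see where a Helios-type core lies in genes that were lower without Helios. Each is the 250 bases before the RefSeq start, 5′ to 3′ on the strand of the gene, with GGGAA or TTCCC in capitals. Nfam1 has 3 RefSeq entries and Arhgap15 2, and the one nearest to the deposited gene start was used. RefSeq starts can differ from the deposited gene starts, and the Ms4a4b window holds 5 exon bases of GENCODE. They are chr14:61309503-61309752 (plus strand) for Arl11, chr19:11443308-11443557 (plus strand) for Ms4a4b, chr15:83033398-83033647 (minus strand) for Nfam1 and chr2:43748574-43748823 (plus strand) for Arhgap15.
Arl11: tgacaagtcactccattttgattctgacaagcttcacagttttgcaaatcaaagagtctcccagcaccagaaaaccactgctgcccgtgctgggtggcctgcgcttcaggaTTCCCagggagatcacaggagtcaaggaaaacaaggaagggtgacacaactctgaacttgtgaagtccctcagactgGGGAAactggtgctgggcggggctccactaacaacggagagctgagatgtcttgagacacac
Ms4a4b: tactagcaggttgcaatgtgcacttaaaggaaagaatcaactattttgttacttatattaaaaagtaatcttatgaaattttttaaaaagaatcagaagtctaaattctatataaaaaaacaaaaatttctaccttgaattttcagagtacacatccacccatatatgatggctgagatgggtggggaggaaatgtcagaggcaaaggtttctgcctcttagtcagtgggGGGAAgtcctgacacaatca
Nfam1: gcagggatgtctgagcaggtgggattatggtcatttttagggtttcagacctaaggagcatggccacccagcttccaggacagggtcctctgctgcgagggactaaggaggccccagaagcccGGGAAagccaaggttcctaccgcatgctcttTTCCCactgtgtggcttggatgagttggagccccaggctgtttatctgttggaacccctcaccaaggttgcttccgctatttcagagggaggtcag
Arhgap15: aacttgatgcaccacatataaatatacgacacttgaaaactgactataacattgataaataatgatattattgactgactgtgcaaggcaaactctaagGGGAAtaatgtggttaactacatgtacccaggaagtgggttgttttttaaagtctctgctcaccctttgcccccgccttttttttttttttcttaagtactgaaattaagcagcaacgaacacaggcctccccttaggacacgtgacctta
Arl11 and Nfam1 held 2 matches each, and Ms4a4b and Arhgap15 held 1 each. The match in Ms4a4b lay nearest to the start, at 20 bases before it, and those in Arl11 lay at 139 and 62 bases. In Nfam1 they lay at 127 and 96 bases, and in Arhgap15 at 151 bases. The promoter of Gpr141 held neither GGGAA nor TTCCC. A core of this length is common: 56.2% of 32841 RefSeq promoters of the same length hold it. The letters AGGAAG or the reverse CTTCCT, of the kind ETS factors such as Spi1 bind, were found in 3 of the 5 promoters (Arl11, Gpr141 and Arhgap15) against 29.5% of all promoters. These are matches of letters, and no binding was measured.

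The libraries held 21053050 to 45410959 counts, and 16325 genes had enough reads to be tested. Levels are CPM, the counts scaled to library size with TMM factors, and log2 fold changes are KO over WT from edgeR's quasi-likelihood fit, ± standard error (SE). Ikzf2 stood at 6.56 to 11.2 CPM in the KO libraries of LT-HSC, against 39.3 to 42.0 CPM in the WT libraries. It stood at 19.0 to 24.0 CPM in MPP3 KO, against 38.3 to 65.6 CPM in MPP3 WT, and at 3.55 to 11.1 CPM in MPP4 KO, against 27.1 to 37.1 CPM in MPP4 WT, so MPP3 KO kept more of the transcript than the other KO groups. Of the gate genes, Slamf1, which encodes CD150, stood at 53.7 CPM or more in LT-HSC and at 8.61 CPM or less in MPP3 and MPP4, and Cd48 at 10.4 CPM or less in LT-HSC and 229.5 CPM or more in the others. Flt3 stood at 2705 to 3640 CPM in MPP4 and at 553 to 876 CPM in MPP3, which was sorted as negative for it, against 57.1 to 114 CPM in LT-HSC. Libraries numbered 1 had reads from fewer genes (17362 to 18896) than those numbered 2 and 3 (19185 to 20272), and every group had 1 of each number.

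Nfam1, the ITAM receptor, lies on the minus strand of chromosome 15 from 82992973 to 83033306 (mm10) and has up to 6 exons in GENCODE M21. In LT-HSC it had 76.2, 72.1 and 86.3 CPM in the KO libraries, against 112, 103 and 123 CPM in the WT libraries. The groups did not overlap, and the means were 78.2 ± 7.32 CPM in KO and 112 ± 9.84 CPM in WT (SD, n = 3 each). The fitted log2 fold change was -0.52 ± 0.10, the smallest change of the 6 and the one with the smallest SE. In such bulk samples, fewer cells that use a gene and less of its RNA per cell cannot be told apart.

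In MPP3 the KO libraries had 159, 149 and 151 CPM of Nfam1, against 158, 144 and 167 CPM in the WT libraries. In MPP4 they had 199, 165 and 192 CPM, against 199, 199 and 185 CPM in WT. In both populations the genotypes overlapped, at levels above those of LT-HSC. The change was -0.03 ± 0.10 in MPP3 and -0.07 ± 0.10 in MPP4, with 95% intervals of -0.24 to 0.18 and -0.28 to 0.14 on the log2 scale.

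Gpr141, the orphan receptor, lies on the minus strand of chromosome 13 from 19749682 to 19824257 and has up to 5 exons. In LT-HSC it had 0 reads in all 3 KO libraries, against 0, 0 and 297 reads in WT 1, WT 2 and WT 3, the last at 6.36 CPM. Against a floor of 3 reads over the group, the pooled level was at least 80.2-fold lower in KO, and without WT 3 neither genotype had a read. This library also had the most total counts of all. Among the LT-HSC libraries it had the highest sums of the neutrophil list and of the macrophage, monocyte and dendritic cell list, as described further on.

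Gpr141 was close to the limit of detection elsewhere as well. In MPP3 the KO libraries had 49, 2 and 0 reads, against 29, 83 and 16 reads in WT. In MPP4 the KO libraries had 43, 4 and 15 reads, against 20, 8 and 0 reads in WT. A library with 0 reads allows a level of up to 0.0643 to 0.139 CPM, depending on its depth. The genotypes overlapped in both populations, and the changes of -1.54 ± 1.96 and 1.24 ± 1.98 were smaller than their SE. Gpr141 has a close copy, Gpr141b, and the sources used here do not say how reads of both were assigned.

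Ms4a4b, the T cell membrane protein, lies on the plus strand of chromosome 19 from 11443553 to 11463549. In LT-HSC it had 4, 0 and 2 reads in the KO libraries, against 57, 51 and 85 reads in the WT libraries. These are 0.141, 0 and 0.0915 CPM in KO and 2.22, 2.13 and 1.82 CPM in WT, so the transcript was nearly at 0 in each KO library and even among the WT libraries. The log2 fold change was -4.65 ± 0.85. It was -5.46 without KO 1 and -4.06 without KO 2, since a handful of reads sets the KO level.

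Outside LT-HSC the transcript was found in every library. In MPP3 the KO libraries had 2.59, 1.71 and 2.47 CPM, against 4.81, 5.54 and 3.00 CPM in WT. All KO libraries lay below all WT libraries there too, with a change of -0.98 ± 0.68 that did not pass the test (edgeR adjusted p = 1, 95% interval -2.41 to 0.46). In MPP4 the KO libraries had 5.05, 0.650 and 3.61 CPM, against 1.82, 4.21 and 2.18 CPM in WT, and the change was 0.18 ± 0.67. The KO libraries of MPP4 spread over a wider range than those of any other group. Ms4a4b belongs to a gene cluster of similar copies, so its reads may in part be those of relatives.

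Cd52, the lipid-anchored glycoprotein, lies on the minus strand of chromosome 4 from 134082448 to 134095082 in 2 exons. In LT-HSC it had 1.20, 1.18 and 0.595 CPM in the KO libraries, against 2.38, 2.54 and 5.01 CPM in the WT libraries. The lowest WT library lay well above the highest KO library, and the highest of all was WT 3. The log2 fold change was -1.74 ± 0.36, and -1.28 without WT 3. Of the 1187 exonic bases of Cd52, 14.5% are shared with another gene, Crybg2, which had 0 to 107 reads per library, so reads from the shared stretch are uncertain.

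Cd52 was the member that differed most between populations. In MPP3 the KO libraries had 41.6, 25.9 and 28.4 CPM, against 36.3, 41.6 and 39.8 CPM in WT. In MPP4 the KO libraries had 104, 58.0 and 53.5 CPM, against 89.2, 89.8 and 76.0 CPM in WT. In both populations KO 1 stood level with or above the WT libraries while KO 2 and KO 3 stood below all of them. The change was -0.30 ± 0.29 in MPP3 and -0.24 ± 0.28 in MPP4 over all libraries. With the libraries numbered 2 and 3 only it was -0.59 ± 0.27 and -0.57 ± 0.27 (edgeR adjusted p = 0.981 and 0.907), so it was larger in size and still did not pass.

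B and plasma cell genes were uneven over these libraries. The 14 genes of that list summed to 3215, 312 and 344 CPM in the KO libraries of MPP3, against 3682, 4033 and 471 CPM in the WT libraries. Igkc, the immunoglobulin kappa constant region, had 1199.8, 13.97 and 31.4 CPM in MPP3 KO, against 1235, 1084 and 20.5 CPM in MPP3 WT. KO 1, WT 1 and WT 2 were the libraries high in Igkc, and their Cd52 stood at 41.6, 36.3 and 41.6 CPM. In the libraries with little Igkc, Cd52 stood at 25.9 CPM in KO 2, 28.4 CPM in KO 3 and 39.8 CPM in WT 3. In MPP4 Igkc was at 1.34 CPM or less and the list summed to 1480, 1116 and 954 CPM in KO, against 1702, 1449 and 1316 CPM in WT, most of it Ighm. The part of these genes in the Cd52 values was not tested.

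Arhgap15, the Rac-inactivating protein, lies on the plus strand of chromosome 2 from 43748824 to 44395953, the longest of the 6 genes, with up to 15 exons. In LT-HSC it had 83.1, 90.9 and 72.7 CPM in the KO libraries, against 143, 152 and 127 CPM in the WT libraries. The groups were well apart, and each KO library lay below the lowest WT library. The log2 fold change was -0.77 ± 0.14, and it stayed between -0.84 and -0.69 when any 1 library was left out.

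In MPP3 the KO libraries had 149, 162 and 175 CPM of Arhgap15, against 204, 216 and 153 CPM in WT. In MPP4 they had 176, 188 and 164 CPM, against 207, 178 and 145 CPM in WT. WT 3 was the lowest WT library in both populations, and the genotypes overlapped. The change was -0.24 ± 0.14 in MPP3 (95% interval -0.54 to 0.06) and -0.00 ± 0.14 in MPP4 (-0.30 to 0.29).

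Arl11, the small GTPase, lies on the plus strand of chromosome 14 from 61309753 to 61311936 in 2 exons. In LT-HSC it had 2.12, 2.62 and 1.37 CPM in the KO libraries, against 4.53, 9.96 and 5.48 CPM in the WT libraries. WT 2 was the highest of the WT libraries by far, and all KO libraries lay below the lowest WT library. The log2 fold change was -1.69 ± 0.26, and -1.29 without WT 2.

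In MPP3 the KO libraries had 33.9, 35.7 and 34.6 CPM of Arl11, against 32.3, 30.8 and 31.0 CPM in WT. Here every KO library lay above every WT library, the reverse of LT-HSC, by 0.15 ± 0.23 on the log2 scale, which did not pass the test (edgeR adjusted p = 1). In MPP4 the KO libraries had 41.8, 45.4 and 40.6 CPM, against 38.5, 50.1 and 42.1 CPM in WT, with a change of -0.03 ± 0.23. The 95% intervals were -0.35 to 0.64 in MPP3 and -0.52 to 0.46 in MPP4.

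**Figure D1:**
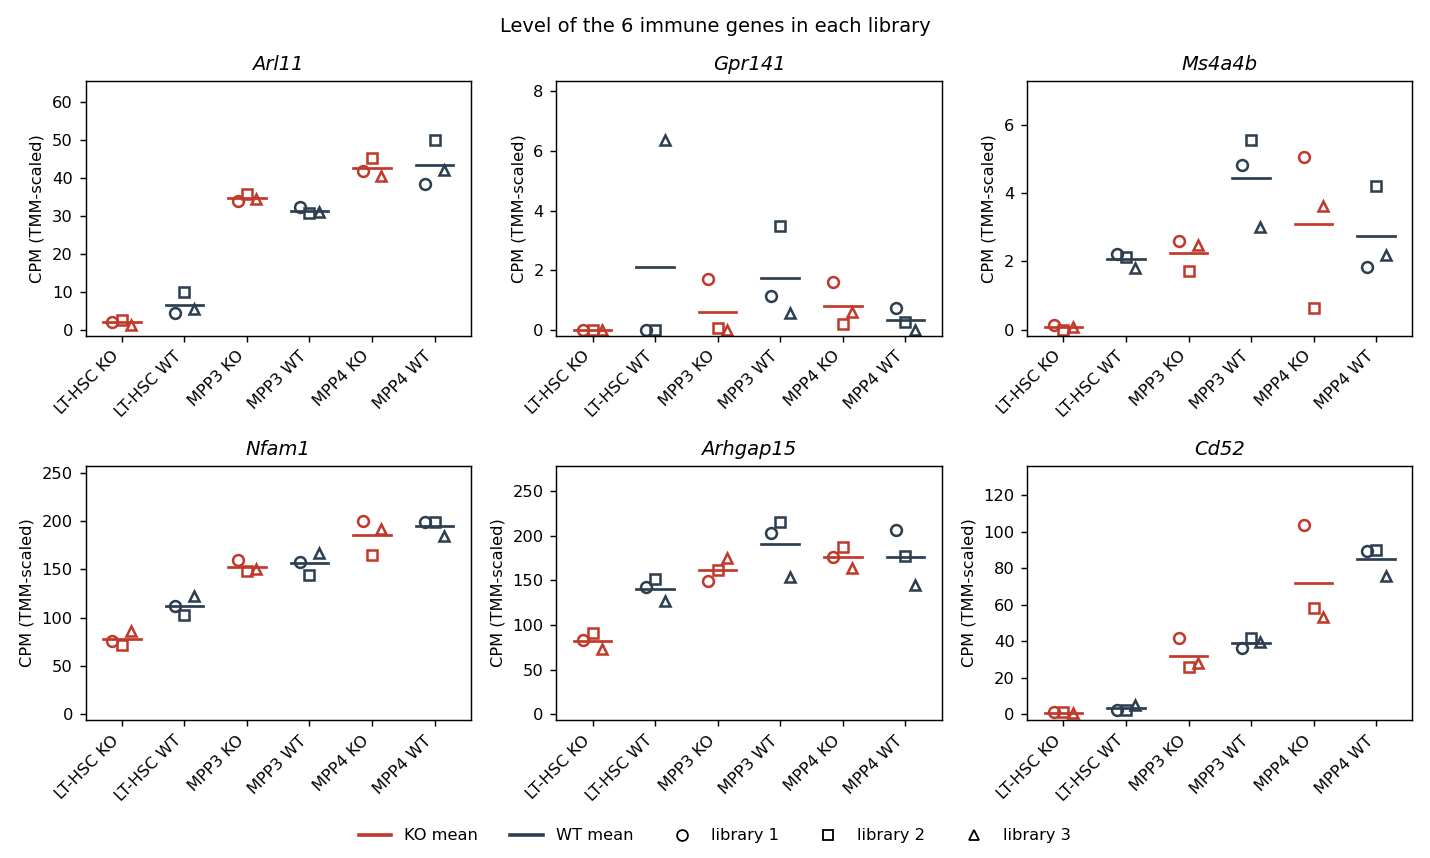
Level of each of the 6 genes (CPM, linear axis from 0, one panel per gene) in the 18 libraries, by population and genotype. Circles, squares and triangles are the libraries numbered 1, 2 and 3, and the bar is the group mean. In LT-HSC all KO points lie below all WT points for every gene but Gpr141, whose WT mean is set by 1 library at 6.36 CPM.

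Set against all genes, the LT-HSC pattern reads as follows. All 3 KO libraries lay below all 3 WT libraries in 6.14% of the 16325 tested genes, and this was so for 5 of the 6 members, which were chosen for it. In MPP3 it was so for 1 member (Ms4a4b) against 5.62% of all genes, and the reverse for 1 member (Arl11) against 5.01%. In MPP4 no member was separated in either direction, against 4.02% and 3.96% of all genes. The reverse, all KO above all WT, held for 9.15% of genes in LT-HSC and for no member. Over all genes edgeR passed 10 in LT-HSC (0.0613%), of which 3 were higher (0.0184%) and 7 lower (0.0429%); the members were chosen on this contrast and nothing is read from these counts.

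In MPP3 and MPP4, whose libraries did not enter the choice, the members gave no call. Of the 6 members 0 passed edgeR's adjusted threshold of 0.05 in MPP3, where 1 gene of all passed (0.00613%), and 0 passed in MPP4, where 2 genes did (0.0123%). At an unadjusted p under 0.05 the count of members was also 0 in each, where 750 genes of all had such a p in MPP3 and 653 in MPP4. DESeq2 and limma voom called 0 members in each. The median log2 fold change of the members was -0.27 in MPP3 and -0.02 in MPP4, against 0.00 over all genes in each population, and it was -1.71 in LT-HSC, against 0.01. These intervals leave room for changes of moderate size: for Cd52 in MPP3 the lower bound is -0.90. Of the 5 genes with reads in every group, the changes of Nfam1 and Arhgap15 were the most tightly bounded.

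The LT-HSC effect itself was not tested against the effects in MPP3 and MPP4, because the members were chosen on it. Between MPP4 and MPP3 the effect of KO did not differ for any member by the interaction term (edgeR adjusted p = 1 for each of the 6). No gene of all passed there with edgeR (527 at an unadjusted p under 0.05), and DESeq2 called 11 genes, none of them a member.

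**Figure D2:**
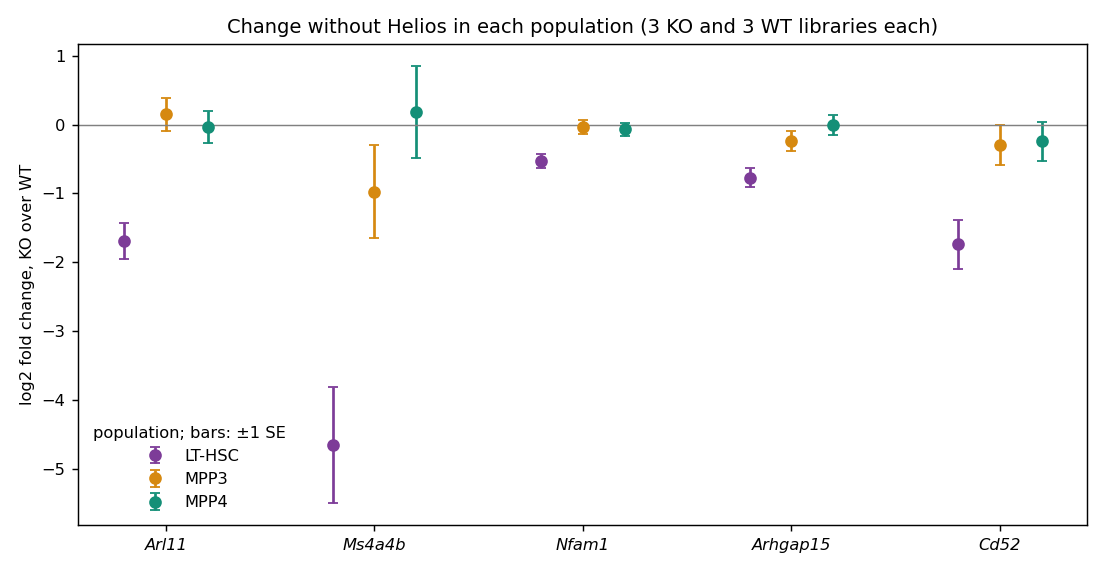
Log2 fold change of KO over WT in each population for the 5 genes with reads in every group, from edgeR's fit to all 18 libraries; bars are ± 1 SE. LT-HSC values lie between -0.52 and -4.65 and chose the genes, while those of MPP3 and MPP4 lie within -0.98 and 0.18.

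All 6 genes except Gpr141 were lowest in LT-HSC, in the order of the group means. For Cd52 the rise outside the stem cells was the steepest: its mean was 32.2-fold higher in MPP3 KO than in LT-HSC KO and 11.8-fold higher in MPP3 WT than in LT-HSC WT. For Arl11 the same ratios were 17.1 in KO and 4.71 in WT. Nfam1 and Arhgap15 were already well expressed in stem cells, and their means were 1.95-fold and 1.97-fold higher in MPP3 KO than in LT-HSC KO, and 1.39-fold and 1.36-fold higher in MPP3 WT than in LT-HSC WT. The LT-HSC libraries of both genotypes entered the choice of the members, so all these ratios are a description with no test. The KO ratios also have the low LT-HSC KO level as their denominator, so they are not separate evidence.

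The order of the groups differed between genes. Cd52 was highest in MPP4, with 71.8 ± 27.9 CPM in KO and 85.0 ± 7.83 CPM in WT, overlapping (SD, n = 3 each). It was intermediate in MPP3, with 31.9 ± 8.42 CPM in KO and 39.2 ± 2.70 CPM in WT, again overlapping, and lowest in LT-HSC. From low to high, Arl11 ran LT-HSC KO, LT-HSC WT, MPP3 WT, MPP3 KO, MPP4 KO and MPP4 WT, and only the last pair of neighbours overlapped. Nfam1 ran LT-HSC KO and LT-HSC WT, both apart, and then MPP3 KO, MPP3 WT, MPP4 KO and MPP4 WT, each overlapping the next. Arhgap15 and Ms4a4b were lowest in LT-HSC KO and highest in MPP3 WT, and all neighbours from LT-HSC WT upwards overlapped. Gpr141 showed no order beyond its spread.

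Per kb of transcript, which allows genes to be compared with each other, Arhgap15 was the most abundant member in LT-HSC, at 30.3 ± 3.37 CPM per kb in KO and 51.7 ± 4.60 CPM per kb in WT. Nfam1 came next, at 27.8 ± 2.60 CPM per kb in KO and 40.0 ± 3.50 CPM per kb in WT. Apart from Gpr141, Ms4a4b was the least abundant, at 0.0987 ± 0.0912 CPM per kb in KO and 2.62 ± 0.267 CPM per kb in WT. In MPP4 Cd52 led, with 142 ± 55.1 CPM per kb in KO and 168 ± 15.5 CPM per kb in WT, and its transcript is the shortest of the 6 at 506 bases.

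Between MPP4 and MPP3 the members could be tested. Cd52 was higher in MPP4 than in MPP3 in KO by 1.17 ± 0.29 (edgeR adjusted p = 0.0229) and in WT by 1.12 ± 0.29 (adjusted p = 0.0316). It was the only member past the threshold, 1 of 6 in each genotype, where 2.76% of all genes in KO and 2.19% in WT were called higher in MPP4. All 3 MPP4 libraries lay above all 3 MPP3 libraries in each genotype, and the share of all genes so separated was not counted. With the mouse as a block (libraries of a genotype with the same number taken to be 1 mouse), the change in KO was 1.13 ± 0.22 (edgeR adjusted p = 0.00751). With the libraries numbered 2 and 3 only and no block, it was 1.04 ± 0.27 and did not pass (adjusted p = 0.0683). In the fit without a block the call rests on few libraries. In KO it was lost without MPP4 KO 1 (0.80, adjusted p = 0.150), MPP3 KO 2 or MPP3 KO 3, and in WT without any 1 of the 6 libraries compared, where the change stayed between 1.06 and 1.19 (adjusted p = 0.0531 to 0.129).

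The other members moved less between these populations. Nfam1 was 0.28 ± 0.10 higher in MPP4 in KO and 0.32 ± 0.10 higher in WT and did not pass (edgeR adjusted p = 0.140 and 0.0931). With the mouse as a block in the same way, Nfam1 passed in WT at 0.32 ± 0.09 (adjusted p = 0.0447), so that 2 of 6 members were called there. Arl11 was 0.29 ± 0.23 higher in KO and 0.47 ± 0.23 higher in WT (adjusted p = 0.637 and 0.378). In limma voom, with the mouse as a random effect, Arl11 passed in WT as well, at 0.47 ± 0.13 (adjusted p = 0.0363). Arhgap15, Ms4a4b and Gpr141 did not pass in either genotype, and their changes had opposite signs in KO and WT.

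Markers of other blood cells differed between the LT-HSC libraries, and for every list the summed levels of KO and WT overlapped. Of 12 tested neutrophil genes 0 lay above 0 and 12 below, with a median log2 fold change of -4.50, and 0 passed edgeR's threshold. The medians were -0.48 for macrophage, monocyte and dendritic cell genes, 0.13 for T and NK cell genes and -0.47 for B and plasma cell genes. They were 1.32 for mast cell, basophil and eosinophil genes and -1.02 for erythroid genes. The 13 detected genes of the neutrophil list summed to 105.03, 62.3 and 65.4 CPM in the KO libraries, against 78.4, 172.5 and 353.6 CPM in WT 1, WT 2 and WT 3. Most of the sum in KO and in WT 1 was Csf3r, the receptor of granulocyte colony-stimulating factor, which immature cells also carry. S100a9, a calcium-binding protein of neutrophils and monocytes, had 1.10, 0.789 and 0.183 CPM in KO, against 1.17, 5.29 and 31.1 CPM in WT. The granule genes Ltf and Ngp had at most 1.68 and 2.76 CPM in KO, against 65.8 and 59.4 CPM in WT 3, 19.7 and 27.0 CPM in WT 2 and next to none in WT 1. Ly6g was at 0 in all KO libraries and WT 1.

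The 16 macrophage, monocyte and dendritic cell genes summed to 25.9 to 67.1 CPM in KO and 27.2 to 125 CPM in WT, with WT 3 the highest. The monocyte genes Ly6c2, Ccr2 and Cx3cr1 had 22.5, 7.45 and 3.86 CPM in WT 3, against at most 1.33, 1.33 and 0 CPM in KO. WT 3 is the library that held all Gpr141 reads of LT-HSC. Some other genes of the list peaked elsewhere: Cd68 in WT 2 (16.8 CPM), Mrc1 in WT 1 (11.4 CPM) and C1qc in KO 2 (7.28 CPM). Itgax was at 0 in all KO libraries and at 1.48, 0.417 and 0.942 CPM in the WT libraries. This marker of dendritic cells and macrophages was called lower in KO (edgeR adjusted p = 0.0221), 1 of the 7 genes called in that direction. The 15 T and NK cell genes summed to 75.7 to 82.8 CPM in KO and 56.1 to 83.6 CPM in WT, and Cd3e, Cd8a, Ncr1 and Klrd1 were at 0 in all 6 libraries. The 14 B and plasma cell genes summed to 250.6 to 287.9 CPM in KO and 201 to 284 CPM in WT, most of it Xbp1, and Ms4a1 was at 0 in KO and in WT 1. The 10 mast cell, basophil and eosinophil genes summed to 76.6 to 112.7 CPM in KO and 38.3 to 81.3 CPM in WT, and the 9 erythroid genes to 27.3 to 45.8 CPM in KO and 33.0 to 59.0 CPM in WT. The single marker genes named here were picked after their values were seen.

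WT 1 had reads from the fewest genes of all 18 libraries (17362), and its neutrophil genes were at the level of the KO libraries. It had Ms4a4b, Nfam1 and Arhgap15 at the level of the other WT libraries, and Arl11 and Cd52 at the lowest level of the WT libraries. Among the LT-HSC libraries it also had the most Itgax. With WT 1 as the only WT library, the log2 fold change was -4.78 for Ms4a4b, -0.53 for Nfam1 and -0.81 for Arhgap15. With all libraries these values were -4.65, -0.52 and -0.77. For Arl11 and Cd52 it was -1.16 and -1.25 with WT 1 alone, against -1.69 and -1.74 with all libraries, and Gpr141 had no reads. A single WT library gives no spread within WT, and LT-HSC chose the members, so nothing is read from these values. The part of the marker genes in the differences of the members was not tested.

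**Figure D3:**
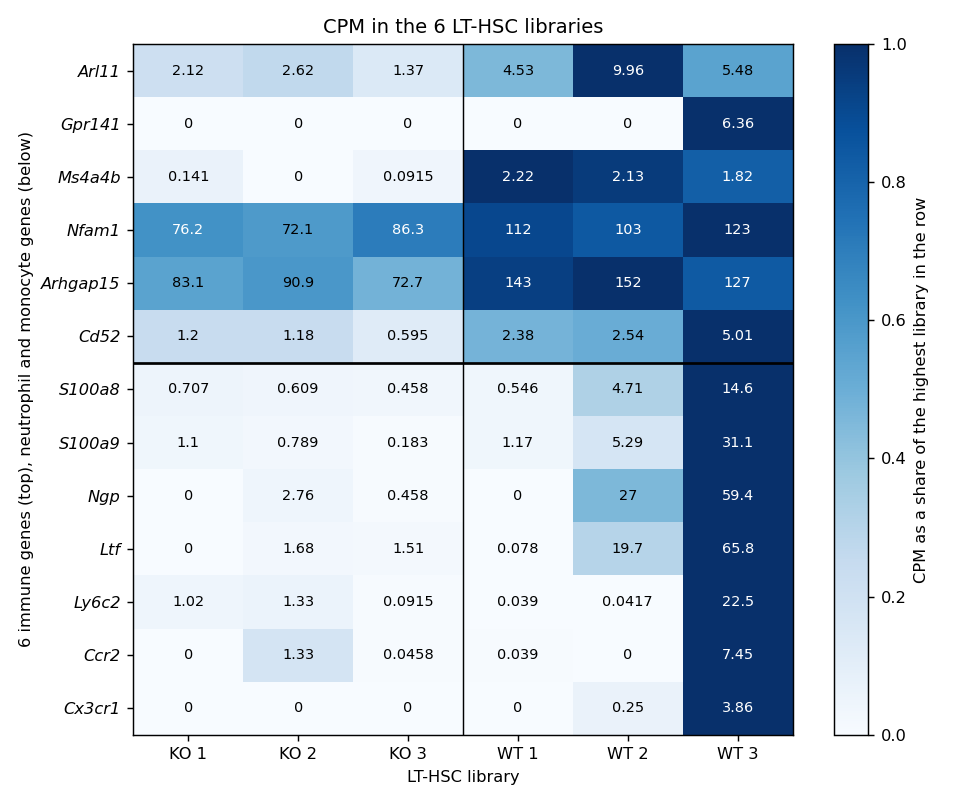
CPM of the 6 members (upper rows) and of 7 neutrophil and monocyte genes (lower rows, picked after their values were seen) in the 6 LT-HSC libraries, KO on the left. The number is the CPM and the shade its share of the highest library in the row. The lower genes shown peak in WT 3, while others of their lists peak elsewhere, such as Cd68 and Ly6g in WT 2, Mrc1 in WT 1 and C1qc in KO 2. Of the members, Gpr141 at 6.36 CPM and Cd52 peak in WT 3. Nfam1 does so at 123 CPM, against 112 and 103 CPM in WT 1 and WT 2. Arl11 and Arhgap15 peak in WT 2 and Ms4a4b in WT 1.

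The partners of 5 of the members in their families or pathways were counted from lists drawn up for this purpose. In KO against WT, edgeR passed 0 genes of each list described here in every population. For the ITAM pathway (kinases, adaptors and NFAT factors downstream of receptors such as Nfam1), 40 of 44 genes were tested, and in LT-HSC 16 lay above and 24 below 0 with a median of -0.12. At an unadjusted p under 0.05 there were 6 genes, DESeq2 called 1 and voom 0. Over all 16325 tested genes in LT-HSC, 1832 had such a p, DESeq2 called 184 and voom 33. The LT-HSC counts of the lists below stand against the same background. Lat, an adaptor of T cell and mast cell receptors, had 31.6 ± 1.20 CPM in KO, against 20.9 ± 3.44 CPM in WT, which did not pass (edgeR adjusted p = 0.254).

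The ARF and ARF-like GTPases, the family of Arl11, leaned the other way in LT-HSC: 20 of 26 tested genes lay above 0, with a median of 0.17 against 0.01 over all genes. Among them 5 had an unadjusted p under 0.05, DESeq2 called 1 and voom 0. Arf5 was the nearest to the threshold, with 149.6 ± 9.48 CPM in KO, against 115 ± 14.5 CPM in WT (edgeR adjusted p = 0.201). In MPP4 9 of the 26 lay above 0, with a median of -0.09.

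Of 18 listed genes of the MS4A family, relatives of Ms4a4b, 10 were tested, and their median in LT-HSC was -0.43, with 3 above and 6 below 0 and 1 at an unadjusted p under 0.05. The neighbour Ms4a6c, 5816 bases from Ms4a4b, had 3.75 ± 0.947 CPM in LT-HSC KO and 7.95 ± 4.49 CPM in LT-HSC WT (edgeR adjusted p = 0.480). Lipid-anchored surface proteins, as Cd52 is, had 6 of 19 above 0, a median of -0.10 and 5 at an unadjusted p under 0.05, and Ly6e had 829 ± 23.1 CPM in KO, against 705 ± 44.7 CPM in WT (adjusted p = 0.334). Leukocyte G protein-coupled receptors, as Gpr141 is, had 11 of 31 above 0 and 19 below, a median of -0.12 and 4 at an unadjusted p under 0.05. Adgrg3, an adhesion receptor of granulocytes, had 27.6 ± 2.68 CPM in KO, against 15.3 ± 6.70 CPM in WT (adjusted p = 0.209). DESeq2 called 2 of these receptors and no gene of the MS4A and lipid-anchored lists, and voom called none in the 3 lists.

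In MPP3 and MPP4 the same lists held 0 to 2 genes at an unadjusted p under 0.05 in KO against WT, and DESeq2 and voom called 0 of them. Over all genes 750 in MPP3 and 653 in MPP4 had such a p. Between MPP4 and MPP3 the families did hold calls, among 5.44% of all genes in KO and 4.81% in WT. The ITAM list had 5 higher and 2 lower of 40 in KO and 7 higher and 2 lower in WT. Lck, a Src-family kinase of lymphoid cells, had 134 ± 43.9 CPM in MPP4 KO and 30.7 ± 3.73 CPM in MPP3 KO, and 169 ± 55.8 CPM in MPP4 WT and 43.4 ± 13.5 CPM in MPP3 WT (edgeR adjusted p = 0.000196 and 0.000409).

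Of the MS4A list 0 were higher and 2 lower of 10 in KO, and 0 higher and 3 lower in WT. Ms4a2, a chain of the IgE receptor of mast cells and basophils, had 0.0125 ± 0.0216 CPM in MPP4 KO and 12.7 ± 11.6 CPM in MPP3 KO, and 0 reads in MPP4 WT against 10.7 ± 2.26 CPM in MPP3 WT (edgeR adjusted p = 0.000662 and 0.000532). Of the 19 lipid-anchored genes 0 were higher and 1 lower in KO, and 1 higher and 2 lower in WT. Cd55, which protects cells from complement, had log2 fold changes of -3.01 ± 0.31 in KO and -2.86 ± 0.31 in WT, opposite in sign to Cd52 (adjusted p = 1.81e-05 and 2.27e-05). Of the 31 receptors 4 were higher and 3 lower in KO, and 2 higher and 3 lower in WT, and Gpr171 had 399.8 ± 50.1 CPM in MPP4 KO and 188 ± 12.6 CPM in MPP3 KO, and 451 ± 4.47 CPM in MPP4 WT and 204 ± 34.4 CPM in MPP3 WT (edgeR adjusted p = 3.87e-05 and 2.80e-05). The ARF list had 1 call in each genotype, Arf2 lower in KO and Arl8b higher in WT, and both were lost when single libraries were left out. The calls of Lck, Ms4a2, Cd55 and Gpr171 held in both genotypes in all 26 alternatives.

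The genes next to the members on the chromosome were checked as well. The nearest tested protein-coding genes on both sides of the members numbered 12, and 0 of them passed edgeR's threshold in any population, nor did DESeq2 or voom call any. In LT-HSC 1 had an unadjusted p under 0.05, as did 1832 of the 16325 tested genes, and in MPP3 and MPP4 0 had. In LT-HSC the log2 fold change was 0.38 ± 0.16 for Ebpl beside Arl11, -0.29 ± 0.34 for Tcf20 and 0.25 ± 0.21 for Serhl beside Nfam1, and -0.72 ± 1.02 for Kynu and -0.19 ± 0.24 for Gtdc1 beside Arhgap15. The log2 values were 0.44 ± 0.58 and -0.16 ± 0.08 for Epdr1 and Elmo1 beside Gpr141 and -0.84 ± 1.29 for Ms4a4c beside Ms4a4b, and -0.47 ± 1.05 and -0.08 ± 0.52 for Crybg2 and Ubxn11 beside Cd52.

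Other genes had profiles over the 18 libraries close to those of the members. Likeness was measured as the mean absolute difference of log2 CPM after centring each gene, over 10008 protein-coding genes. The 3 nearest to Arl11 were Tm6sf1 (0.30), Ncf4 (0.36) and Tnfaip8l2 (0.38), and those nearest to Cd52 were Padi2 (0.33), Clec12a (0.41) and Bex6 (0.44). Nfam1 had the closest neighbours of all, Anxa6 (0.12), Ap1g2 (0.13) and Ucp2 (0.13), followed by those of Arhgap15, which were Ptpre, Mrgpre and Tgif1 (0.16 each). For Ms4a4b they were Ms4a6c, Ncf4 and Clnk (0.86 to 0.89), and for Gpr141 Anxa3, Palm and Ms4a6c (1.28 to 1.36), both with larger distances and fewer reads than the other members.

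Ncf4, which helps assemble the NADPH oxidase of phagocytes, had 5.21 ± 0.798 CPM in LT-HSC KO and 11.1 ± 1.54 CPM in LT-HSC WT. Anxa6, an annexin, had 111 ± 13.2 CPM in LT-HSC KO and 185 ± 10.8 CPM in LT-HSC WT. Their LT-HSC libraries entered the measure of likeness, so these values are given with no test. Clec12a, an inhibitory lectin receptor of myeloid cells, had 1.05 ± 0.692 CPM in LT-HSC KO and 4.54 ± 2.62 CPM in LT-HSC WT. Tm6sf1 stood at 11.3 ± 3.93 CPM in LT-HSC KO and 16.1 ± 2.37 CPM in LT-HSC WT, and Ptpre, a receptor-type phosphatase, at 257 ± 28.4 CPM in LT-HSC KO and 342 ± 31.3 CPM in LT-HSC WT. Not all of the nearest genes were lower in KO. The log2 fold change in LT-HSC was 0.15 ± 0.44 for Anxa3, 0.16 ± 0.29 for Palm and 0.15 ± 0.31 for Bex6, and it was -0.09 ± 0.14 for Ap1g2 and -0.13 ± 0.08 for Ucp2.

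In the authors' deposited table the LT-HSC log2 fold changes of the members were -1.51 for Arl11, -2.10 for Ms4a4b, -0.54 for Nfam1, -0.77 for Arhgap15 and -1.37 for Cd52, with adjusted p-values of 3.29e-07 to 0.000966. The members were chosen on this contrast, so these p-values are no test of them, and 202 genes had an adjusted p under 0.05 there. The authors' deposited table gives Gpr141 a change of -0.53 with no adjusted p, where the fit used here gave -8.87, a value that depends on how 0 reads are treated and is no bound. For MPP3 and MPP4 the authors' deposited table gives all 6 members adjusted p-values of about 1. In the authors' deposited table the LT-HSC change is nearer to 0 than the one fitted here for every member but Nfam1.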

How the data were processed

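Full-length cDNA was made from poly(A) RNA of sorted cells and tagmented, per the labels' protocols, without molecular identifiers, so floors for 0 reads reflect counting error alone. Per the submitters' processing notes, bcl2fastq 2.17.1.14, DESeq and the build mm10 were used; aligner, counter, annotation release and strand setting are not stated there. The authors deposited raw read counts per gene, per the file headers, and these were the input to every fit. Next to these stand, per the file headers, a normalized signal that equals the counts over 1 size factor per library, and log2 fold changes with p-values for KO against WT, whose model is not stated.

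The 16325 genes kept by filterByExpr were scaled by TMM and fitted in edgeR 4.0.16 under R 4.3.3 by quasi-likelihood, 1 mean per group over all 18 libraries, with Benjamini-Hochberg adjustment within each contrast at 0.05. Each SE was derived from the F statistic. The alternatives included DESeq2 1.42.0 and voom of limma 3.58.1 (mouse as random effect), and the edgeR code was checked on simulated counts. Libraries of a genotype with the same number were taken to be from 1 mouse, since the labels give 3 mice per genotype and number each population 1 to 3 (residual correlations 0.041 to 0.182 over 18 pairs), so a mouse block was fitted for MPP4 against MPP3. Each library is from a separate mouse within its group.

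Coordinates are those of the deposited table (mm10); 5 of the 6 members have the same ones in GENCODE M21, and Ms4a4b a later end there. The members, companion lists and alternatives were chosen with earlier results of these data known. Named beside them are the nearest tested coding gene on each side, the 3 nearest profiles among coding genes with at least 5 CPM on average, and of each companion list up to 4 genes past the threshold or, with none past it, up to 2 that came nearest; some of these are not reported here. Reads of near-identical or overlapping genes (Gpr141, Ms4a4b, Cd52) may have been assigned to either gene.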

Additional observations from a re-analysis of the deposited data

Results flagged for a closer look

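Arl11 separated the genotypes in LT-HSC and in MPP3, with the order of the genotypes reversed. In LT-HSC every KO library lay below every WT library, with a log2 fold change of -1.69 (6.14% of all genes were separated in that direction), and in MPP3 every KO library lay above every WT library, with 0.15 ± 0.23 (5.01% of all genes). The difference between the populations was not tested, since LT-HSC chose the gene, and the MPP3 change alone did not pass edgeR's test (adjusted p = 1). It was flagged because the KO libraries lie wholly below the WT libraries in LT-HSC and wholly above them in MPP3.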

How the results depend on the processing

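In LT-HSC no member's direction changed in 153 values under the alternatives, and 6 moved by at least 1 SD between replicates: Arl11 (-1.16 with WT 1 as the only WT library), Ms4a4b (-5.42 with libraries numbered 2 and 3, -5.46 without KO 1, -4.06 without KO 2) and Gpr141 (-22.71 with DESeq2, -3.50 with voom). The members were chosen as lower in LT-HSC, so the kept direction is no separate evidence. For Gpr141 the 153 values hold none without WT 3, with WT 1 as the only WT library or with the groups compared alone. In the tested comparisons 26 of 768 member values changed sign, none of them past the threshold. At this depth Ms4a4b had 0 to 4 reads per KO library of LT-HSC, and Gpr141 had reads in 1 LT-HSC library only.

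Counts over all genes moved more, and the cause was not tested. In LT-HSC 10 genes passed in the fit reported, against 184 with DESeq2, 33 with voom, 5 with the groups compared alone, 19 with libraries numbered 2 and 3, and 77 with WT 1 as the only WT library. In MPP3 it was 1, against 2 with no filter, 35 with DESeq2, 2 with voom and 4 with libraries numbered 2 and 3. In MPP4 it was 2, against 7 with no filter, 36 with DESeq2, 1 with the groups compared alone and 7 with libraries numbered 2 and 3. Between MPP4 and MPP3 it was 888 in KO (1348 with DESeq2, 564 with numbers 2 and 3) and 786 in WT (1189 with DESeq2). Of the members 1 passed there in KO, against 0 with the groups compared alone or with numbers 2 and 3, and 1 in WT, against 2 with DESeq2, 3 with voom and 0 with numbers 2 and 3. DESeq2 called 11 genes in the interaction, against 0.

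Leaving out single libraries gave 2 to 14 genes in LT-HSC, 1 to 2 in MPP3, 1 to 5 in MPP4, 627 to 942 between MPP4 and MPP3 in KO, 465 to 861 in WT and 0 to 2 in the interaction. The count of members was 0 to 1 between MPP4 and MPP3 in each genotype and 0 elsewhere.

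With the mouse as a replicate block 2 members passed between MPP4 and MPP3 in WT. Across genotypes a number joins different mice, and same-numbered libraries had residual correlations of 0.00839 to 0.0972 over 9 pairs. With the number as a block 20 genes passed in LT-HSC and 2 members between MPP4 and MPP3 in WT, and no member passed in MPP3 or MPP4.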
